A study of Sus scrofa with 16 samples.

Results

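The genes described here are those of the interferon response and of antigen presentation in the pig left ventricle, with or without a myocardial infarction. They were chosen by name. A gene was taken if its symbol stood on a list of 39 interferon, class I and class II genes or began with SLA- (swine leukocyte antigen, the pig major histocompatibility complex). Of the 39 listed symbols 28 had a probe set that carries that symbol alone, and 12 SLA genes were added. This gave 40 genes of the 6765 named by a single symbol on the array. The 40 were 21 interferon-induced or interferon-signalling genes, 8 genes of the class I pathway and 11 of the class II pathway. Another 11 listed genes, among them IFITM1, IFITM3, OAS2, BST2 and TAP2, had no such probe set and were not analysed here. Where a gene had several probe sets (16 genes, 71 probe sets over all 40), the one with the highest mean over the arrays was used.

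Interferons are secreted proteins that bind receptors on the cell surface and, through JAK kinases and transcription factors such as STAT2 and IRF9, switch on a shared set of antiviral genes. Interferon gamma also raises IRF1, the guanylate-binding proteins and, through the coactivator CIITA, the class II genes. Class I molecules, formed with B2M, show peptides from inside the cell on nearly all nucleated cells, whereas class II molecules show ingested peptides mainly on dendritic cells, macrophages and B cells. In infarcted heart muscle, nucleic acids released from dying cells are known to start an interferon response in immigrant macrophages in mice.

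The animals were Yorkshire x Landrace swine aged 2 to 3 months, studied 3 weeks after surgery. One group of 8 had a myocardial infarction (MI) and the other group of 8 had a sham operation (Sham). By the labels, 4 of each group were female and 4 were male and neutered. RNA from crushed frozen left ventricle was measured on 1 Affymetrix porcine array per animal. The labels do not say from which region of the ventricle the tissue came, or how near the infarct. All values are log2 signals as deposited, so a difference of 1 is a doubling of signal. In such whole tissue, fewer cells of a type and less RNA per cell cannot be told apart.

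The 16 arrays fell into 2 sets by their poly-A spike-in transcripts relative to the hybridisation controls, which stood at -1.88 ± 0.32 (SD, n = 11) in set A and at -4.57 ± 0.45 (SD, n = 5) in set B. Set B held the arrays of MI 7, MI 8, Sham 6, Sham 7 and Sham 8. The labels do not mention these sets. The array labelled MI 7, female, went against its label: its signal of EIF1AY, a Y-linked gene, was 9.51, while the other 7 animals labelled female reached 3.51 at most and the males lay between 9.40 and 9.96. The tissue label was borne out by 11 of 11 measured cardiomyocyte markers above background, with mean levels per animal of 13.63 to 13.80 in MI and 13.66 to 13.85 in Sham. Background was taken as 4.99, the highest value on any array among 23 control probe sets with no target, and a probe set counted as above it when the mean of either group exceeded it. All 40 genes did, ISG20 narrowly (5.03 over the 16 arrays).

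None of the 40 genes passed the test between MI and Sham, whether interferon-induced, class I or class II, and the values of the groups overlapped for each gene. Over all 23999 probe sets 10.5% passed this test (limma over group and sex, adjusted p under 0.05), or 5.94% of the 16731 above background when only these were tested. At an unadjusted p under 0.05, 1 of the 40 genes was counted, against 23.6% of all probe sets. The median difference, MI minus Sham, was 0.05 over the 40 genes and -0.0003 over all probe sets. The 95% interval of the difference lay within a halving and a doubling of signal for 39 of the 40 genes, the exception being IRF1, and within 1.41-fold either way for 21 of them.

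Among the 14 interferon-induced effector genes, 9 differences were positive and 5 negative, and the median was 0.08. ISG20, an exonuclease that degrades RNA, had the lowest p. Its signal ran from 4.69 to 6.31 with a median of 5.14 in MI and from 4.47 to 5.23 with a median of 4.78 in Sham. MI 5 alone exceeded 6, and 7 of the 8 MI animals lay above the Sham mean. The difference was 0.43 with an interval of 0.06 to 0.79 (limma adjusted p = 0.14), and the Sham mean of 4.81 lay below background.

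GBP2, a guanylate-binding protein induced by interferon gamma, ran from 7.39 to 9.55 with a median of 7.86 in MI and from 7.27 to 8.08 with a median of 7.64 in Sham. MI 5 (9.55) and MI 1 (8.64) stood above all Sham animals and the other 6 MI animals lay within the Sham range. The difference was 0.44, with an interval of -0.12 to 0.99 (limma adjusted p = 0.34). GBP1, which lies beside it on chromosome 4, had the same highest animal, MI 5 at 11.47, but a difference of 0.10 with an interval of -0.48 to 0.68. OAS1, which makes the oligoadenylates that activate RNase L, had medians of 9.45 in MI and 9.07 in Sham, ranges of 8.67 to 10.23 and 8.37 to 9.53, and a difference of 0.35 (interval -0.13 to 0.83, adjusted p = 0.39).

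MX1, a GTPase that traps viral nucleocapsids, showed a wide range in both groups. It ran from 7.70 to 9.69 with a median of 8.96 in MI, and from 8.52 to 9.84 with a median of 8.99 in Sham. The lowest values belonged to MI 2, MI 8 and MI 7 and the highest to Sham 3, so that the spread within a group exceeded the difference of -0.19 (interval -0.66 to 0.28, adjusted p = 0.68). ISG15, a ubiquitin-like modifier, ran from 7.93 to 10.21 in MI and from 8.63 to 10.46 in Sham, with medians of 9.59 and 9.58. RSAD2, which makes a chain-terminating nucleotide, ran from 7.91 to 10.41 and from 8.86 to 10.45, with medians of 9.73 and 9.75. For both genes the highest animal was Sham 3 and the lowest MI 8, a range of 5.77-fold for ISG15 and 5.83-fold for RSAD2, against differences between groups of -0.22 and -0.18.

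MX2 was the effector with the most negative difference, -0.27 (interval -0.56 to 0.03, adjusted p = 0.27), with medians of 6.10 in MI and 6.30 in Sham. Only 1 of 8 MI animals lay above its Sham mean. The 3 IFIT genes, which bind viral RNA or the initiation factor eIF3 and lie side by side on chromosome 14, had differences of -0.01 (IFIT1), 0.21 (IFIT2) and 0.05 (IFIT3). IFI44L, EIF2AK2 (the kinase PKR, which halts translation on double-stranded RNA) and USP18 (which removes ISG15 from its targets) differed by 0.12, 0.21 and 0.06. None of these 6 had an adjusted p under 0.53.

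The 7 genes of sensing and signalling had a median difference of 0.03. IRF1, a transcription factor induced by interferon gamma, had the widest residual spread of all 40 genes. Its values ran from 7.36 to 8.93 with a median of 8.25 in MI and from 7.62 to 11.22 with a median of 8.47 in Sham. Sham 8 alone accounted for the top, since the next Sham animal stood at 9.03. The difference was -0.46 with an interval of -1.34 to 0.42 (adjusted p = 0.57). DDX58, the cytosolic RNA sensor RIG-I, had medians of 7.37 in MI and 6.87 in Sham and a difference of 0.16 (interval -0.32 to 0.64). Its MI values reached both ends, from 6.01 in MI 7 to 8.28 in MI 5. STAT2 and IRF9, transcription factors of type I interferon signalling, differed by 0.11 and 0.03, and IRF7, the factor that amplifies type I interferon production, by -0.12. IRF3, which is present before infection and activated by phosphorylation, was among the steadiest, at 8.19 ± 0.19 in MI and 8.14 ± 0.14 in Sham (SD, n = 8 each). SOCS1, a feedback inhibitor of JAK kinases, differed by 0.02.

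The 8 class I genes had 4 positive and 4 negative differences, from -0.18 (SLA-7) to 0.06 (SLA-8). The classical heavy chains SLA-2 and SLA-3, whose annotated spans overlap on chromosome 7, differed by 0.01 and 0.02. SLA-2 ran from 12.20 to 12.63 in MI and from 12.22 to 12.87 in Sham, with medians of 12.53 and 12.34. SLA-6, SLA-7 and SLA-8 form another cluster on that chromosome (Sscrofa11.1, RefSeq, bases 23622352 to 23649342), and none had an adjusted p under 0.68. TAP1, a subunit of the peptide transporter, had medians of 8.29 in MI and 8.25 in Sham. Its 2 highest values, 9.55 in MI 5 and 9.33 in Sham 8, stood apart from the others, which did not exceed 8.61, and the difference was 0.05 (interval -0.38 to 0.47). TAPBP (tapasin), which bridges the transporter to class I, differed by -0.09. The classical SLA class I genes are near-identical copies, so their probe sets may share signal. Sharing with SLA-6, SLA-7 and SLA-8 was not tested.

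B2M, the light chain of class I, was represented by 9 probe sets that did not vary alike. The one used ran from 13.16 to 14.09 in MI and from 13.45 to 14.08 in Sham and gave a difference of -0.09 (interval -0.39 to 0.21). A second probe set was almost as bright, at 13.74 ± 0.17 in MI and 13.66 ± 0.05 in Sham (SD, n = 8 each), and its difference was 0.08 (adjusted p = 0.52). The correlation of the 2 over the 16 arrays was 0.003. The other 7 had differences from -0.09 to 0.72, and none of the 9 passed. RefSeq lists 2 entries named B2M on pig chromosome 1, and which one each probe set reads was not tested.

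In the class II pathway 8 of 11 differences were positive, with a median of 0.11. SLA-DQA1, an alpha chain, had the lowest p: 10.52 to 11.90 with a median of 11.26 in MI, and 10.45 to 11.29 with a median of 10.82 in Sham. The MI animals at the bottom of that range were MI 7 and MI 8, and 6 of 8 lay above the Sham mean. The difference was 0.32 with an interval of -0.01 to 0.65 (adjusted p = 0.23). SLA-DRB1, a beta chain, ran from 10.46 to 11.74 in MI and from 10.51 to 11.27 in Sham, with medians of 11.35 and 11.04 and a difference of 0.26 (interval -0.10 to 0.62, adjusted p = 0.40). SLA-DRA, its alpha partner, differed by 0.16, SLA-DQB1 by 0.07 and SLA-DOA, which modulates peptide exchange, by 0.12. The exchange factor chains SLA-DMB and SLA-DMA differed by 0.07 and -0.06.

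CTSS (cathepsin S), the protease that trims the invariant chain, ran from 10.17 to 11.40 with a median of 10.90 in MI and from 10.45 to 10.99 with a median of 10.60 in Sham. Both MI animals of set B lay below all Sham animals, and the other 6 lay above the Sham mean. The difference was 0.18 (interval -0.11 to 0.47, adjusted p = 0.47). IFI30, a lysosomal thiol reductase, differed by 0.11. CD74, the invariant chain itself, differed by -0.03 (interval -0.37 to 0.31), with medians of 10.72 in MI and 10.73 in Sham. CIITA, the master coactivator of class II transcription, was the steadiest of the 40 genes, at 6.41 ± 0.07 in MI and 6.49 ± 0.10 in Sham (SD, n = 8 each), a difference of -0.08 (interval -0.20 to 0.04).

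**Figure D1:**
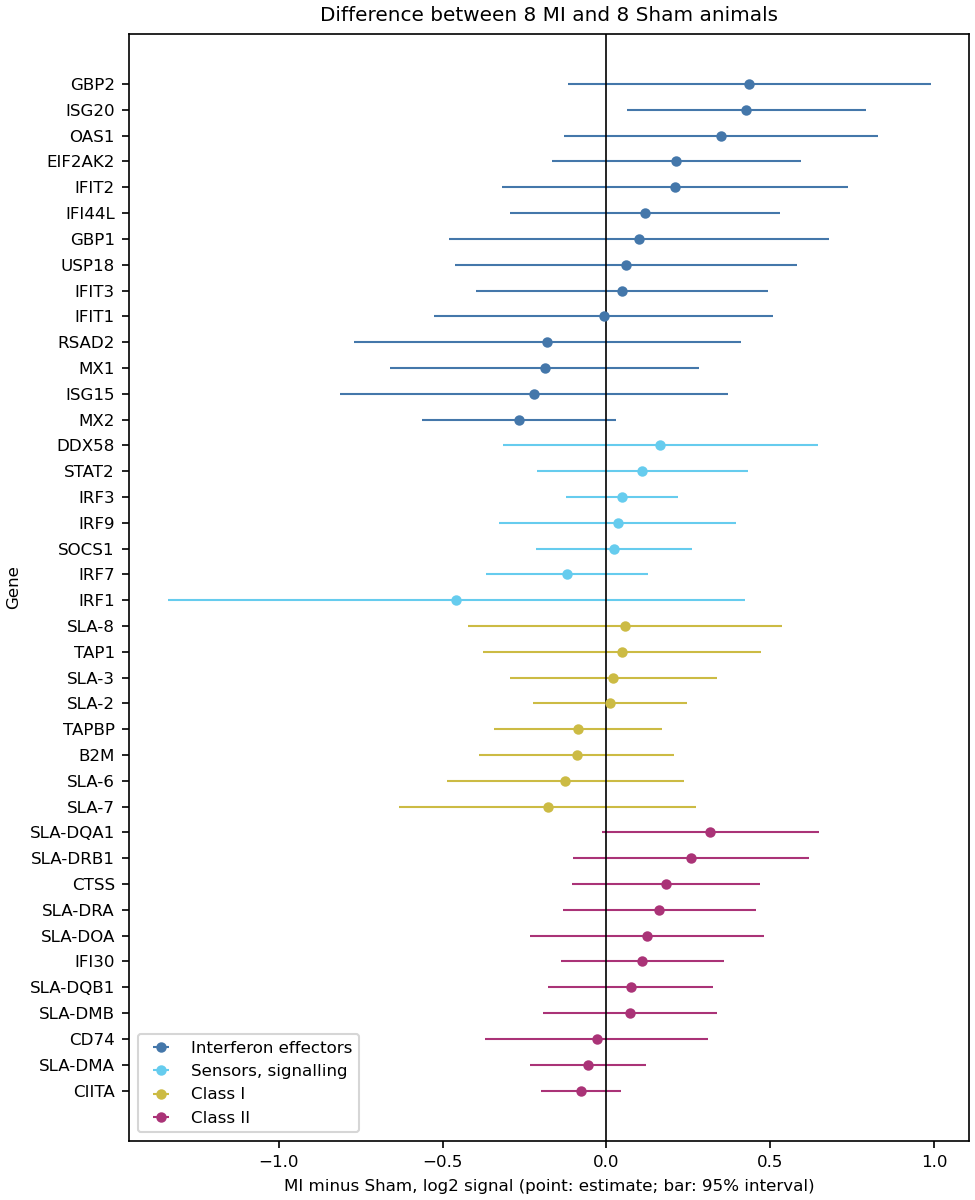
Difference between MI and Sham in log2 signal for each of the 40 genes, with the limma estimate as a point and its 95% interval as a bar, coloured by list. The interval of ISG20 (0.06 to 0.79) is the only one that leaves out 0, before adjustment.

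The 31 probe sets not used for these genes gave 5 with an unadjusted p under 0.05, of which 4 passed after adjustment, all lower in MI. Over all probe sets 23.6% and 10.5% did so, and the 4 of 31 that passed are near that share. The passing ones read IFI30 (-0.42), MX2 (-0.34), SLA-DRB1 (-0.45) and TAP1 (-0.23), and 3 of the 4 lay below background in both groups. The one above background, for TAP1, had means of 4.93 ± 0.08 in MI and 5.15 ± 0.08 in Sham (SD, n = 8 each), so only its Sham mean exceeded 4.99. Its correlation with the TAP1 probe set used was -0.05. For MX2 both probe sets gave a negative difference, and for the other 3 genes the sign was opposite to that of the probe set used. Of all 31, 16 had the opposite sign, such as SLA-DMA above background (0.20 against -0.06). The counts of signs given here therefore rest on the probe sets used.

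The animals differed more from each other than the groups did. Over animals of the same group and sex, the residual standard deviation had a median of 0.49 for the 21 interferon genes, 0.35 for class I and 0.29 for class II, against 0.19 for all probe sets and 0.22 for those above background. The 90th percentile over all probe sets was 0.39, and 14 of 21 interferon genes, 3 of 8 class I genes and 0 of 11 class II genes exceeded it. IRF1 (0.93), ISG15 (0.62), RSAD2 (0.62) and GBP1 (0.61) had the widest spreads. CIITA (0.09), IRF3 (0.16) and SLA-DMA (0.16) lay below the median of all probe sets. These spreads include that between the 2 array sets. With the set as a block the medians were 0.45 for interferon, 0.31 for class I and 0.24 for class II genes, against 0.17 for all probe sets. These are descriptions of genes chosen by name, and no test was made of them as a group.

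**Figure D2:**
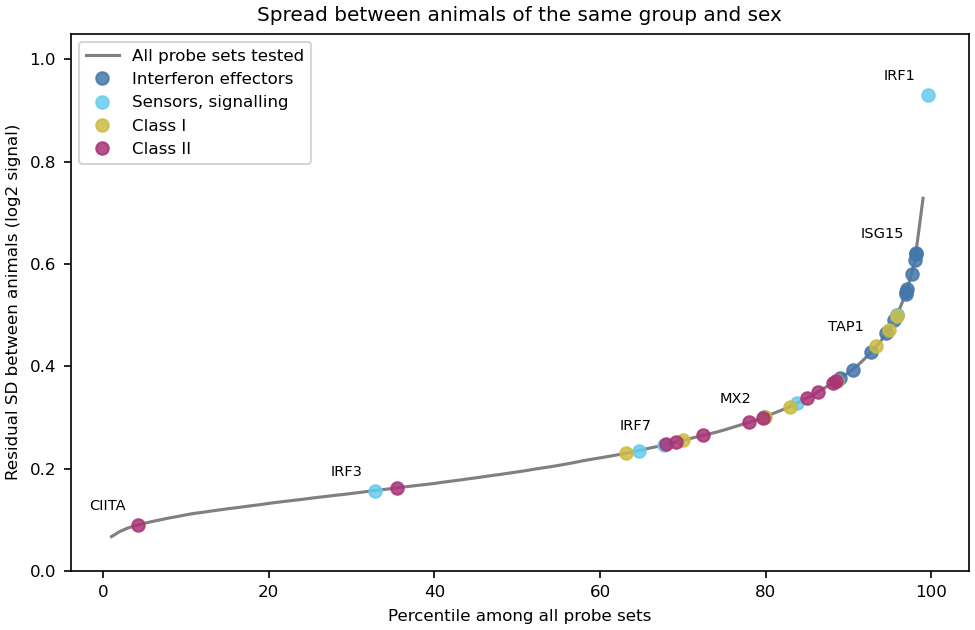
Residual standard deviation between animals of the same group and sex (log2 signal) against its percentile among all probe sets tested, drawn as a grey line, with the 40 genes as coloured points by list. Most effectors lie above the 90th percentile (0.39), whereas CIITA (0.09) and IRF3 (0.16) lie low.

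To show which animals carried this spread, each gene was centred on its mean over the 16 arrays and the centred values were averaged per animal in each list. The interferon score was 0.02 ± 0.45 in MI and -0.02 ± 0.28 in Sham (SD, n = 8 each). In MI it ran from -0.54 (MI 8) to 0.76 (MI 5) with a median of 0.01, and in Sham from -0.34 (Sham 7) to 0.45 (Sham 8) with a median of -0.09. The 5 highest animals were MI 5, Sham 8, MI 6, Sham 3 and MI 1, so that both groups held high and low animals. MI 5 lay above the gene's mean for 20 of the 21 interferon genes and Sham 8 for 18, whereas MI 2 and Sham 1 did so for 3 each.

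The class II score was 0.05 ± 0.24 in MI and -0.05 ± 0.10 in Sham (SD, n = 8 each). It ran from -0.22 (MI 8) to 0.52 (MI 5) with a median of 0.03 in MI, and from -0.16 (Sham 7) to 0.10 (Sham 8) with a median of -0.08 in Sham. MI 5 had the highest value of all 16 animals in 8 of the 11 class II genes and in 9 of the 21 interferon genes. MI 8 had the lowest in 5 class II genes and 7 interferon genes.

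The class I score was -0.02 ± 0.17 in MI and 0.02 ± 0.22 in Sham (SD, n = 8 each). It ran from -0.16 (MI 7) to 0.29 (MI 5) with a median of -0.11 in MI, and from -0.23 (Sham 5) to 0.49 (Sham 8) with a median of 0.02 in Sham. Sham 8 lay above the mean for all 8 class I genes. Without Sham 8 the class I difference turned from -0.04 to 0.02, and without MI 5 the interferon difference turned from 0.04 to -0.06, all less than the spread between animals.

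**Figure D3:**
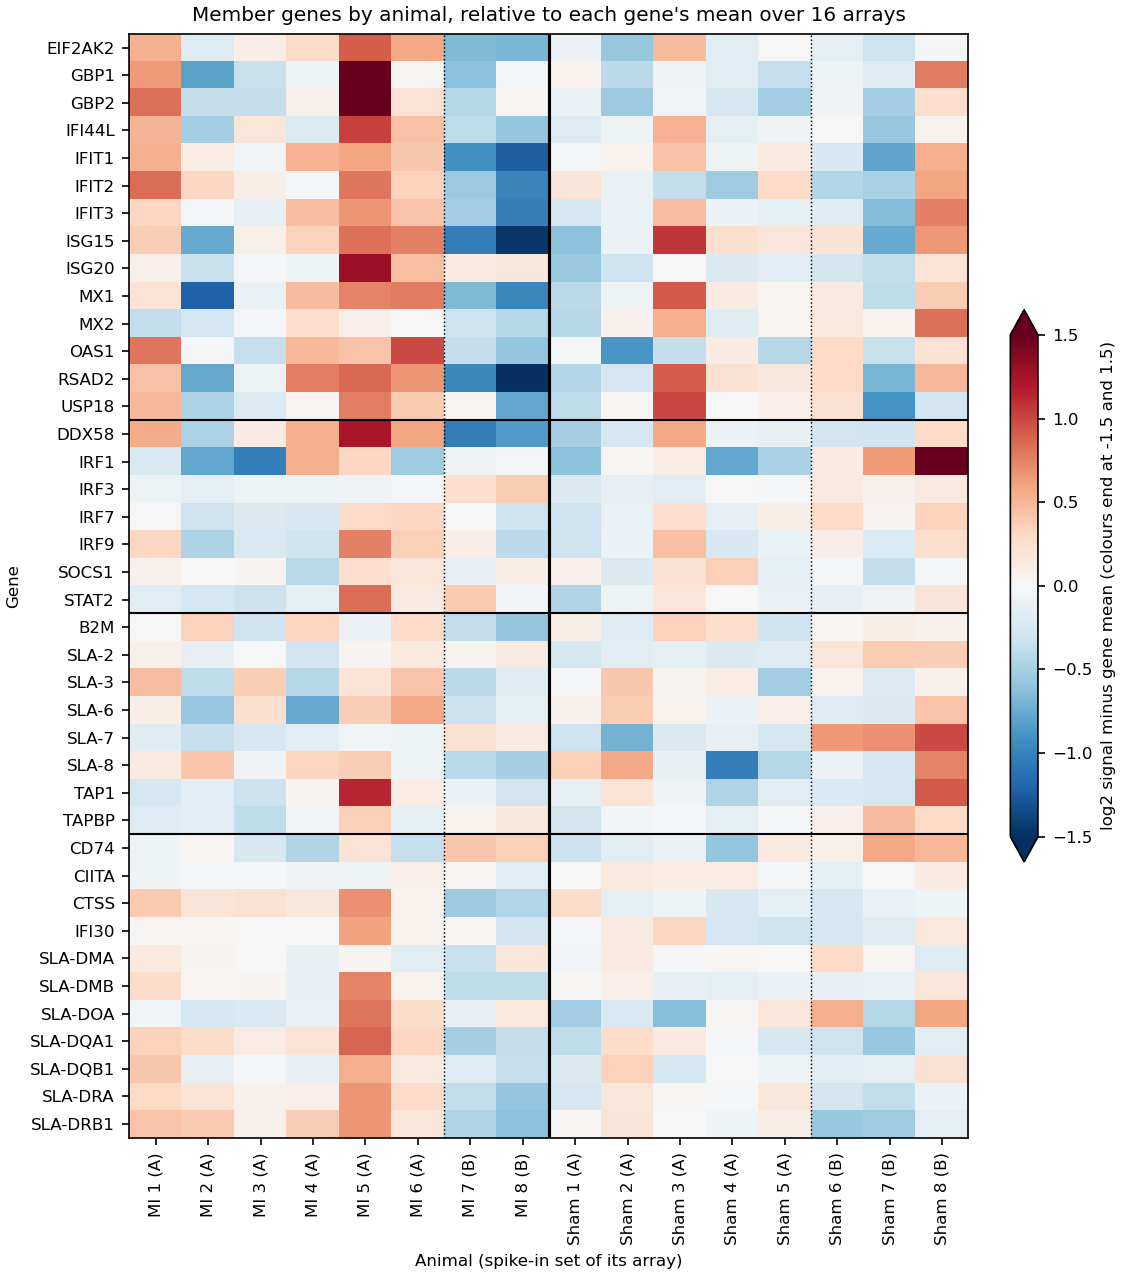
Log2 signal of the 40 genes (rows, by list) in the 16 animals (columns, MI then Sham, set A before set B) minus the mean of the gene over all arrays, red above and blue below, with colours ending at -1.5 and 1.5. MI 5 is red in most rows, MI 7 and MI 8 are blue in most effector and class II rows, and the strongest square of IRF1 is that of Sham 8.

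**Figure D4:**
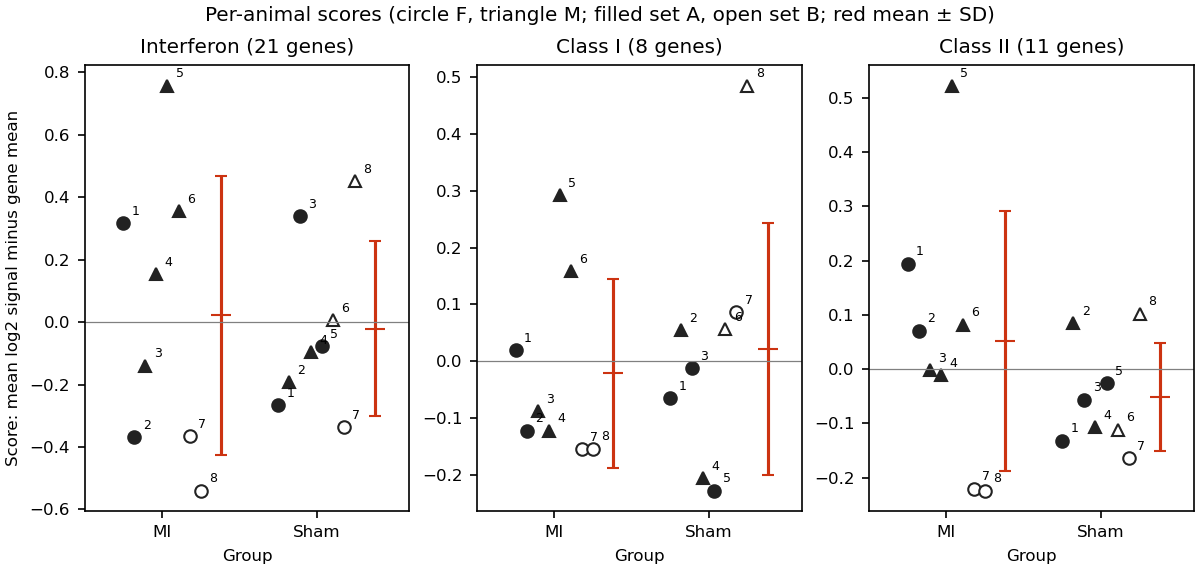
Per-animal scores (mean centred log2 signal) for the interferon, class I and class II genes in MI and Sham, with animal numbers, circles for animals labelled female, triangles for males, filled symbols for set A and open ones for set B, and red bars for the mean ± SD of 8 animals. MI 5 is highest for interferon (0.76) and class II (0.52), and Sham 8 for class I (0.49).

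The direction of the group difference was not the same in the 2 array sets. In set A (6 MI, 5 Sham) the interferon score was 0.18 ± 0.40 (SD, n = 6) in MI and -0.06 ± 0.24 (SD, n = 5) in Sham. There 32 of the 40 genes were higher in MI on average, with a median difference of 0.14, against -0.001 over all probe sets. In set B (2 MI, 3 Sham, fitted without sex) the score was -0.37 and -0.54 in MI and 0.01, -0.34 and 0.45 in Sham. There 36 of the 40 genes were lower in MI, with a median of -0.28, against 0.002 over all probe sets. Within set A the lowest adjusted p of limma among the 40 genes was 0.08 (IFIT2, difference 0.57), with 9.68% of all probe sets passing, and within set B it was 0.36. With the set as a block, the median difference was 0.05 and 0 of 40 genes passed (lowest adjusted p 0.11, ISG20), against 12.9% of all probe sets. Both MI arrays of set B came from animals labelled female, 1 of them MI 7. Of its Sham arrays, Sham 6 (0.01) and Sham 8 (0.45) were from males and Sham 7 (-0.34) from a female. Group and labelled sex can therefore not be told apart in set B. Without MI 7 the median difference was 0.06 and 0 of 40 genes passed.

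Between the array sets, with group and sex in the same fit, 9 of the 40 genes passed, against 17.6% of all probe sets. SLA-DRB1 (-0.65), SLA-DQA1 (-0.51), SLA-DRA (-0.45) and IFIT1 (-0.72) were lower in set B. SLA-7 (0.87), CD74 (0.57), SLA-2 (0.37), TAPBP (0.36) and IRF3 (0.29) were higher. The adjusted p ran from 0.00047 (SLA-7) to 0.045 (IFIT1). SLA-DRB1 stood at 11.29 ± 0.23 (SD, n = 11) in set A and 10.61 ± 0.18 (SD, n = 5) in set B, with no overlap. CD74 stood at 10.57 ± 0.24 and 11.12 ± 0.19 in the same arrays, so that the invariant chain and the class II chains it binds differed in opposite directions. The 3' to 5' gap of the actin controls also differed between the sets, at 2.64 ± 0.29 in set A (SD, n = 11) and 1.42 ± 0.14 in set B (SD, n = 5). Its part in these differences was not tested.

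The labelled sexes were set apart next. In females 0 of 40 genes passed between MI and Sham, against 2.85% of all probe sets, and in males 0 of 40, against 3.4%. EIF2AK2 had the lowest p in males, with values of 8.67, 8.86, 9.49 and 9.15 in MI and of 8.00, 8.40, 8.43 and 8.54 in Sham. The MI males all stood above the Sham males, and the difference was 0.70 (SE 0.25, limma adjusted p = 0.146). In animals labelled female it was 9.10, 8.37, 7.91 and 7.88 in MI and 8.49, 9.04, 8.57 and 8.26 in Sham. The 7.91 is that of MI 7, whose EIF1AY signal went against its label. The difference in females was -0.27 (SE 0.25, adjusted p = 0.68).

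MX1 had the lowest p in females. The 4 MI animals labelled female stood at 9.12, 7.70, 8.25 (MI 7) and 7.93 and the 4 Sham females at 8.52, 9.84, 8.94 and 8.53. MI 1 alone lay within the range of the Sham females, and the difference was -0.70 (SE 0.31, limma adjusted p = 0.28). Without MI 7 the lowest limma adjusted p in females among the 40 genes was 0.39. In males MX1 stood at 8.81, 9.38, 9.65 and 9.69 in MI and at 8.85, 9.04, 9.05 and 9.30 in Sham, a difference of 0.33 (SE 0.31, adjusted p = 0.60).

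The difference between these differences, female minus male, was negative for all 14 effector genes, with a median of -0.43, against 0.006 over all probe sets. It was -1.03 for MX1, -1.08 for RSAD2, -0.94 for ISG15 and -0.97 for EIF2AK2. None of the 40 genes passed this test, the lowest adjusted p being 0.79, and 0% of all probe sets passed. In simulated data the test recovered 4 of 100 changes of 0.5 and 58 of 100 changes of 1, so it could miss differences of this size. At an unadjusted p under 0.05 the interaction counted 3 of the 40 genes (EIF2AK2, DDX58 and MX1), against 5.68% of all probe sets. With the set as a block, or within set A, it was 0 of 40, and the 4 MI males were all in set A, whereas 2 of the 4 MI females were in set B. The effectors were lower in MI on average for 11 of 14 in females and higher for 13 of 14 in males. Within set A these counts were 6 and 14. Without MI 7 the female count was 9, and without MI 5 the male count was 12. The interaction of all 14 stayed negative within set A and without MI 7, where the interaction of MX1 was -1.13 and -1.03. Within set A the MI females were MI 1 and MI 2 alone, with MX1 at 9.12 and 7.70, and the Sham males Sham 2 and Sham 4 alone. The genes were read in the same animals and some vary together, so such counts of genes are not counts of separate observations. Without MI 5, a male, 11 of 14 were negative, and with the set as a block besides, 9 of 14.

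Over both groups 37 of the 40 genes were lower in animals labelled female, with a median difference of -0.23 against -0.0015 over all probe sets, and none passed (lowest adjusted p 0.998, 0.0583% of all probe sets passing, and 6 of the 40 genes at an unadjusted p under 0.05, against 3.11% of all probe sets). MX1 (-0.62), ISG15 (-0.75) and RSAD2 (-0.74) had the lowest p. Within set A 28 of 40 were lower, with a median of -0.05, and 0 of 40 had an unadjusted p under 0.05. Without MI 7 it was 38 of 40, with a median of -0.19.

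Genes whose values followed MX1, B2M or CD74 from animal to animal were sought in the 11 arrays of set A, with a permutation test (100000 resamples, two-sided) adjusted over 23998 probe sets for each index gene. For MX1 the 2 probe sets with the highest r of all were those of ISG15 (r = 0.96, Spearman rho = 0.97) and RSAD2 (r = 0.95, rho = 0.96). The permutation p of each r was 1e-05, the smallest the test can give, and its adjusted p was 0.12. For rho the permutation p was 1e-05 and 2e-05, with adjusted p of 0.08 and 0.12. Without MI 2 and Sham 3, the arrays farthest from the median of MX1, r was 0.95 and 0.94. The other named probe sets among the highest were DDX60 (r = 0.95, rho = 0.97), a helicase that is itself interferon-induced, the second probe set of DDX58 (r = 0.90, rho = 0.99) and the kinase NUAK1 (r = 0.87, rho = 0.78), with permutation adjusted p of 0.16, 0.38 and 0.90.

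Further members followed at a distance. USP18 had r = 0.86, DDX58 0.83, IRF7 0.79, IRF9 0.77, IFI44L 0.76 and IFIT3 0.73. OAS1 had r = 0.34 and IFIT2, which lies beside IFIT3, -0.03. These values depended on MI 2 and Sham 3: without them r was 0.70 for OAS1, 0.65 for IFI44L and 0.92 for IFIT3, and the class II genes SLA-DOA, SLA-DQA1 and SLA-DRA moved from between 0.32 and 0.36 to 0.81, 0.76 and 0.76. After adjustment 0% of probe sets passed for MX1. A few probe sets at the smallest p of the permutation test cannot pass by themselves, so this 0% cannot decide whether any follow MX1. At an unadjusted permutation p under 0.05 it was 12 of the other 39 genes, all on the interferon list, against 3.28% of all probe sets. With the group mean subtracted it was 13, against 6.15% of all probe sets.

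SLA-DRA had r = 0.62 with CD74 (rho = 0.57, permutation p = 0.038, adjusted p = 0.999), which fell to 0.33 without MI 5 and Sham 4, and SLA-DRB1 had r = 0.53, which fell to 0.02. Of the other 39 genes, 2 counted at an unadjusted p under 0.05 (SLA-DRA and IFIT2), against 4.13% of all probe sets. After adjustment 0% of probe sets passed, with the same limit from the smallest permutation p. The named probe sets with the highest r to CD74 were PDCD6 (0.94), PR39 (0.89), CANT1 (0.87), HERPUD2 (0.85) and UBE4B (0.84), none of them a class II gene, with rho from 0.82 to 0.95 and permutation adjusted p of r from 0.24 to 0.999. For B2M they were BTBD7 (0.96), DDX6 (0.95), SYNCRIP (0.94), ADAM9 (0.93) and RBM8A (0.91), with rho from 0.80 to 0.96 and permutation adjusted p of r from 0.12 to 0.35. The B2M index was the probe set used above, 1 of 9 that did not vary alike. Likeness to the other B2M probe sets was not tested. For the index none of the other 39 genes counted, against 7.58% of all probe sets. After adjustment 0% of probe sets passed, with the same limit. The highest class I member was SLA-7 (r = 0.34).

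**Figure D5:**
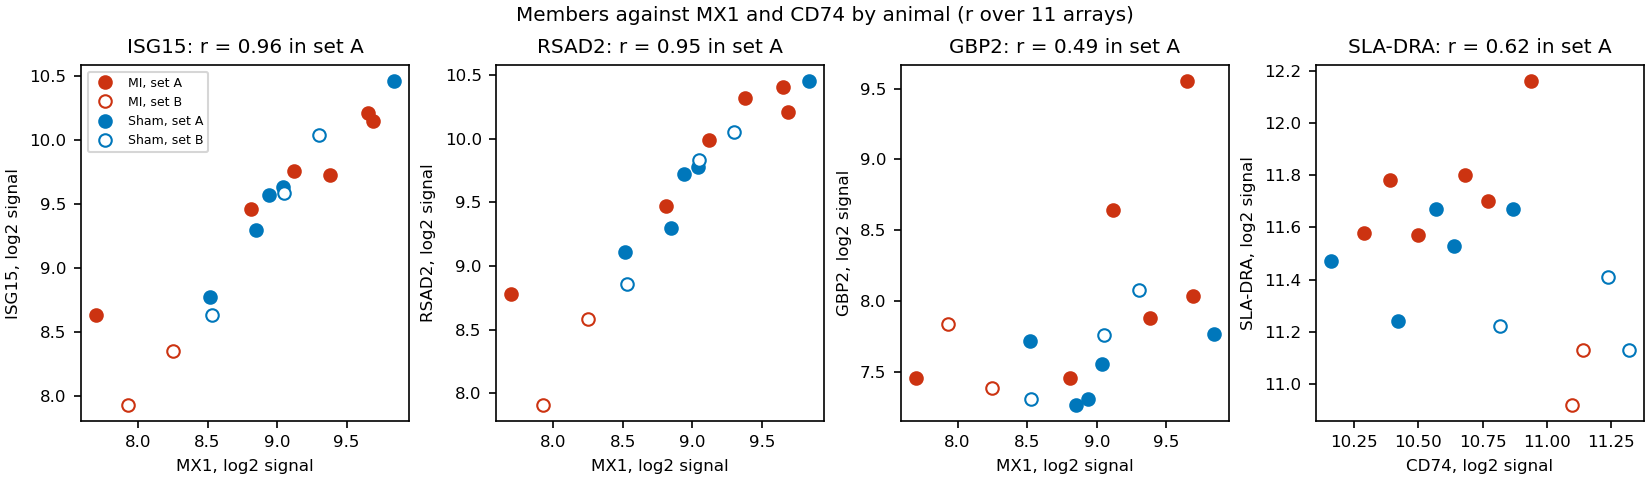
Log2 signals of ISG15, RSAD2 and GBP2 against MX1, and of SLA-DRA against CD74, 1 point per animal, red for MI and blue for Sham, filled for set A and open for set B, with r over the 11 arrays of set A in each title. ISG15 and RSAD2 lie along a line with MX1 in both groups, while GBP2 (r = 0.49) has MI 5 and MI 1 apart from the rest, and SLA-DRA in set B lies low at high CD74.

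The wider pathway was read from lists of further genes, by counts, beside the 10.5% of all probe sets that passed between MI and Sham. Of 14 measured ligands, receptors and kinases 0 passed between MI and Sham. JAK1, the kinase shared by the type I and type II interferon receptors, had the lowest p, with 10.70 to 10.92 and a median of 10.80 in MI, 10.36 to 10.80 and a median of 10.64 in Sham, and a difference of 0.18 (SE 0.07, adjusted p = 0.11). Of 10 further sensors and regulators 1 passed, near that share. TLR9, a receptor for unmethylated DNA, fell by 0.36 (adjusted p = 0.024), from 4.65 ± 0.25 in Sham to 4.29 ± 0.12 in MI (SD, n = 8 each), levels below background in both groups. That call was lost within set A (-0.28, adjusted p = 0.11) and with the animal number as a block (adjusted p = 0.059). Of 15 further interferon-induced genes 0 passed, with a median difference of 0.01. ZC3HAV1, an antiviral zinc-finger protein, had the lowest p (0.26, adjusted p = 0.08), with both groups below background.

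Of 18 further antigen-processing genes 0 passed and 0 had an unadjusted p under 0.05, against 10.5% and 23.6% of all probe sets. Their median difference was 0.08. PSMB8, the immunoproteasome subunit whose gene lies in the SLA region, had the lowest p (0.22, SE 0.11, adjusted p = 0.23). Its values ran from 7.99 to 8.93 with a median of 8.40 in MI and from 7.93 to 8.48 with a median of 8.17 in Sham. Of 7 costimulation genes 2 passed, against 10.5% of all probe sets: CD80 (-0.38, SE 0.08, adjusted p = 0.0051) and CD40LG (-0.28, SE 0.07, adjusted p = 0.017). CD80, a ligand of CD28 on antigen-presenting cells, ran from 4.25 to 4.43 in MI and from 4.47 to 4.97 in Sham and did not overlap, but both groups lay below background, as they did for CD40LG, whose call was lost within set A (adjusted p = 0.071).

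Markers of immune and other cells were read beside these genes, with 10.5% of all probe sets passing between MI and Sham. Of 11 macrophage and monocyte markers 1 passed, near that share. CD14, a co-receptor for lipopolysaccharide, rose by 0.76 (SE 0.14, adjusted p = 0.0031). The mean of the macrophage and monocyte list per animal lay between 7.27 and 7.80 in MI and between 7.38 and 7.68 in Sham. Of 11 T and NK cell markers 4 rose and 1 fell. CD3D (0.43), CD8B (0.30), CD247 (0.34) and IL7R (0.32) were higher in MI and CD4 (-0.24) lower, with IL7R and CD4 below background, and the mean of the list lay between 5.17 and 5.84 in MI and between 5.29 and 5.97 in Sham. CD4 passed in 9 of 29 alternatives, IL7R in 18 of 29, CD247 in 24 of 31 and CD8B in 27 of 31, and the calls of CD8B and CD247 were lost within set A. No marker of B cells (2 measured), dendritic cells (3), endothelium (9), fibroblasts (7) or cardiomyocytes (11) passed. What part these markers have in the values of the 40 genes was not tested.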

How the data were processed

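The deposited table holds 1 column of log2 values per array, between 2.87 and 14.9 with a common median of 6.24, as made by the authors; no source used here gives the normalization or software. Values were used as deposited. Tests ran on 23999 probe sets, without the 124 controls, of which 10069 carried 1 symbol, per the platform annotation. Positions are from RefSeq on Sscrofa11.1, by Entrez ID. All probe sets were fitted in R 4.3.3 with limma 3.58.1, with 4 coefficients for group and sex and 12 residual degrees of freedom. MI against Sham is the mean of the differences in females and males. Tests were two-sided, adjusted by Benjamini-Hochberg over all probe sets, and passed at an adjusted p under 0.05. The fit was tested on simulated data. Scores carry no test. Array sets were split at the largest gap in spike-in signal. Likeness was computed in Python 3.11.15.

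The genes, lists and rules were chosen with earlier results of these data known. Every member could be named, as could the 3 genes of lowest p or those passing in other lists and, per index gene, the 5 named probe sets with the highest r. Replicates are separate animals; their number and the signal over background limit precision. Alternatives were other covariates, normalizations, filters, variance models, array sets, probe set rules and omitted animals. A search of promoters for motifs was planned and not run.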

Additional observations from a re-analysis of the deposited data

Results flagged for a closer look

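In 86 groups of 8 animals (the 40 genes and 3 scores in MI and in Sham), 7 held an animal whose gap to its neighbour was a large part of the group's range, above Dixon's critical value for 8. Chance flags about 5% of such groups when they are independent. These groups share their animals, and the scores are made from the same genes, so the 7 of 86 cannot be weighed against that 5%. Sham 8 was the highest Sham animal in 4 of them. IRF1 stood at 11.22 in Sham 8 and at 9.03 in the next animal (gap over range 0.6068), GBP1 at 10.66 and 9.94 (0.6203), TAP1 at 9.33 and 8.61 (0.5261, barely over that limit), and the class I score at 0.49 and 0.09 (0.5589). MI 5 was the highest MI animal in TAP1, at 9.55 against 8.53 (0.7013), and in IFI30, at 8.79 against 8.24 (0.6244). Among Sham animals CTSS was highest in Sham 1, at 10.99 against 10.66 (0.6215). Sham 8 is an array of set B and MI 5 of set A, and the part of the array set in these values was not tested.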

How the results depend on the processing

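Under every alternative run (other covariates, 2 normalizations, an offset of 32, 2 filters on dim probe sets, 2 variance models, the array sets as a block or alone, omitted animals, the mean over the probe sets of a gene and an adjusted p under 0.01), 0 of the 40 genes passed in MI against Sham, in the interaction or in female against male. The lowest adjusted p of MI against Sham was 0.057, for MX2 as the mean of its probe sets. The sign of a gene's difference turned in 110 of 1239 values of MI against Sham (33 genes), in 101 of 1159 of the interaction and in 59 of 1159 of female against male, none of them with a gene passing. Alternatives on set B alone, or on the set block without MI 5 or MI 7, were chosen after seeing the data.

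The number of all probe sets passing in MI against Sham (2527) fell to 993 among those above background, 654 among the 16000 brightest, 382 with the mean per gene, where fewer features were tested, 1123 at an adjusted p under 0.01 and 1 in set B, where 5 arrays remain. Without single animals it ran from 2045 to 2537. Female against male (14) gave 3 with the mean per gene. On set B alone, where group and labelled sex cannot be told apart, the score differences turned to -0.49 (interferon), -0.36 (class I) and -0.16 (class II). Without single animals they ran from -0.06 to 0.12, from -0.09 to 0.02 and from 0.04 to 0.14.

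Deviations of same-numbered animals correlated between -0.22 and 0.50. Animals of different numbers were not compared, so whether the numbers pair the groups was not tested. With the replicate number as a block, 0 of the 40 genes and 2395 probe sets passed in MI against Sham, 0 probe sets in the interaction and 0 in female against male. Without counts, precision rests on 8 animals a group.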

Other observations

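There were 8 probe sets that carry several symbols with an SLA gene among them, and so stood for no gene above. Those described here were picked from the 8 with their values known. The rest had differences, MI minus Sham, from -0.08 to 0.14, and none of the 8 passed. The probe set shared by SLA-1, a classical class I heavy chain, and LOC100513601 read 9.12 in MI 8, 9.58 in Sham 6, 9.34 in Sham 7 and 9.54 in Sham 8. In the other 12 animals it lay between 4.08 and 6.64, with MI 7 at 5.07. The 4 high arrays are all of set B, whose remaining array, MI 7, was low, and both groups hold high and low animals (MI minus Sham -0.67, SE 0.97, limma adjusted p = 0.74). A probe set shared by SLA-DRB1 and LOC106504372 read 9.33 in MI 5 and between 6.28 and 7.61 in the other 15 animals (0.60, SE 0.29, adjusted p = 0.24). Another with the same symbols was higher in MI on average, 9.69 ± 0.60 against 9.09 ± 0.50 (SD, n = 8 each), and did not pass (0.61, SE 0.26, adjusted p = 0.155).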
